A study of Mus musculus with 6 samples.

Results

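The adult hemoglobin genes *Hba-a1*, *Hba-a2*, *Hbb-bs* and *Hbb-bt*, together with *Alas2*, were read as a measure of the blood left in the medial prefrontal cortex (mPFC) of *Shank3* transgenic (TG) and wild-type (WT) mice. They are 5 of the 18254 genes in the deposited table and were found by matching its Ensembl identifiers to these symbols in GENCODE release M21. There were 3 libraries of each genotype, named here by genotype and replicate number, from TG-1 to WT-3. Each library came from RNA of the mPFC pooled from 2 male mice of one genotype, aged 10 to 12 weeks, on a C57BL/6J background. TG mice carry an EGFP-*Shank3* transgene, whose promoter is not given in the sources used here, and the WT mice were their littermates. Mice were anesthetized with isoflurane and decapitated, and the methods name no perfusion to clear the vessels of blood. No sample of pure blood was analysed here, so the readings are relative and cannot be turned into a volume of blood.

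Hemoglobin is a tetramer of alpha and beta globin chains, each holding a heme group that binds oxygen. Red cell precursors and reticulocytes, the young red cells that have just entered the blood, carry very large amounts of globin mRNA, and mature mouse red cells have no nucleus and make no new mRNA. In tissue that was not perfused, globin mRNA therefore comes mainly from cells inside the vessels, although some neurons and glia of the rodent brain are also known to hold a little. *Alas2* encodes the erythroid form of 5-aminolevulinate synthase, which catalyzes the first step of heme synthesis in red cell precursors. In bulk tissue, fewer cells of a type and less RNA per cell cannot be told apart.

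*Hba-a1* (ENSMUSG00000069919, chromosome 11 from 32283511 to 32284465) and *Hba-a2* (ENSMUSG00000069917, chromosome 11 from 32296489 to 32297298) are the alpha globin genes, both on the plus strand in GRCm38. *Hbb-bs* (ENSMUSG00000052305, chromosome 7 from 103826534 to 103828096) and *Hbb-bt* (ENSMUSG00000073940, chromosome 7 from 103812524 to 103813996) are the adult beta globin genes, both on the minus strand. *Alas2* (ENSMUSG00000025270) lies on chromosome X from 150547375 to 150570638, on the plus strand. The coding sequences of *Hba-a1* and *Hba-a2* differed at 1 of 426 bases and those of *Hbb-bs* and *Hbb-bt* at 1 of 441 bases, and neither difference changed a residue of the 142 or 147 encoded. Of all runs of 31 bases in the *Hba-a2* coding transcript, 91.0% also occur in *Hba-a1*, and the share was 71.3% in the other direction. The corresponding shares were 66.9% for *Hbb-bs* and 59.4% for *Hbb-bt*. The split of reads within each pair is therefore uncertain, and the sum over a pair is the firmer value. *Alas2* shared none of its runs with the globin genes.

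The sequences before the start sites are shown because 3 of the globin genes moved together across the libraries and *Alas2* did not. They are the 150 bases before the RefSeq start site (assembly GRCm38.p6), at chr11:32296342-32296491 (plus strand), chr7:103827929-103828078 (minus), chr7:103813924-103814073 (minus) and chrX:150547267-150547416 (plus). Capitals mark the CACCC box (reverse complement GGGTG), the CCAAT box (reverse complement ATTGG) and the GATAA motif (reverse complement TTATC), searched on both strands, and the motif TATAA, searched on the sense strand alone.
Hba-a2: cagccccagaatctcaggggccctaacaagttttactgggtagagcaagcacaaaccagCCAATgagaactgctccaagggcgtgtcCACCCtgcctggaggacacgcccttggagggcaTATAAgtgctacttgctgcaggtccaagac
Hbb-bs: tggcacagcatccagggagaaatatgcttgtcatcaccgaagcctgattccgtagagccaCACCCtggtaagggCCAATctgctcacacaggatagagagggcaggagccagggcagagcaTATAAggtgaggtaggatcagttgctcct
Hbb-bt: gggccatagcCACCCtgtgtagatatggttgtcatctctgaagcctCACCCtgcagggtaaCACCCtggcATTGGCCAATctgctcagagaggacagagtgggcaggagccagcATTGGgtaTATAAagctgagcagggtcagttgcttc
Alas2: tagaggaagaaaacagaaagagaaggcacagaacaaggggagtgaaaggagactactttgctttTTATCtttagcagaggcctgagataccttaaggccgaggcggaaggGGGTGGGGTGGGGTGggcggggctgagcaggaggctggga

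Each of the 4 globin genes held the CACCC box, the CCAAT box and the motif TATAA in this window, a combination found in 0.782% of 32851 windows of the same length. Taken singly, CACCC occurred in 37.4% of the windows, CCAAT in 24.5% and TATAA in 9.99%. TATAA began 30 bases before the start site in *Hba-a2*, 29 in *Hbb-bs* and 28 in *Hbb-bt*. The window of *Hba-a1* is not printed because the 300 bases around its start site share a run of 297 with those of *Hba-a2*. *Alas2* held 3 adjacent copies of the reverse of CACCC and 1 reverse copy of GATAA, which 13.3% of the windows contain, and neither CCAAT nor TATAA. These matches describe the letters and do not show binding of a factor. For *Hba-a1*, *Hba-a2*, *Hbb-bt*, *Alas2* and 1 coding transcript of *Hbb-bs*, GENCODE places the 5′ end further upstream than RefSeq does, inside or before the window, so the promoter in one annotation is partly transcribed in the other.

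The deposited values are normalized read counts, with totals per library from 28363967 to 29447717. They are scaled estimates, from which the counting error was not computed, and it is large for genes with few counts. *Shank3* had 16310 to 19003 normalized counts in TG and 6791 to 8374 in WT, 2.26-fold higher on average in TG, as labelled. The cortical label was checked by *Slc17a7* and *Camk2a*, genes of excitatory neurons, which had means of 41626 and 114850 normalized counts. The libraries numbered 3 stood apart from the others in both genotypes, and genotype values of the members and lists are also given without them.

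The 6 libraries held different amounts of globin mRNA, and the amount followed the replicate number more than the genotype. WT-2 gave the lowest reading, with 5928 normalized counts summed over the 4 globin genes. TG-2 came next with 6799, then WT-1 with 7991 and TG-1 with 8275. WT-3 had 9558 and TG-3 gave the highest reading, 10543. The highest library was 1.78 times the lowest. In both genotypes the library numbered 2 was lowest and the library numbered 3 highest, and each TG library lay next to the WT library of the same number.

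**Figure D1:**
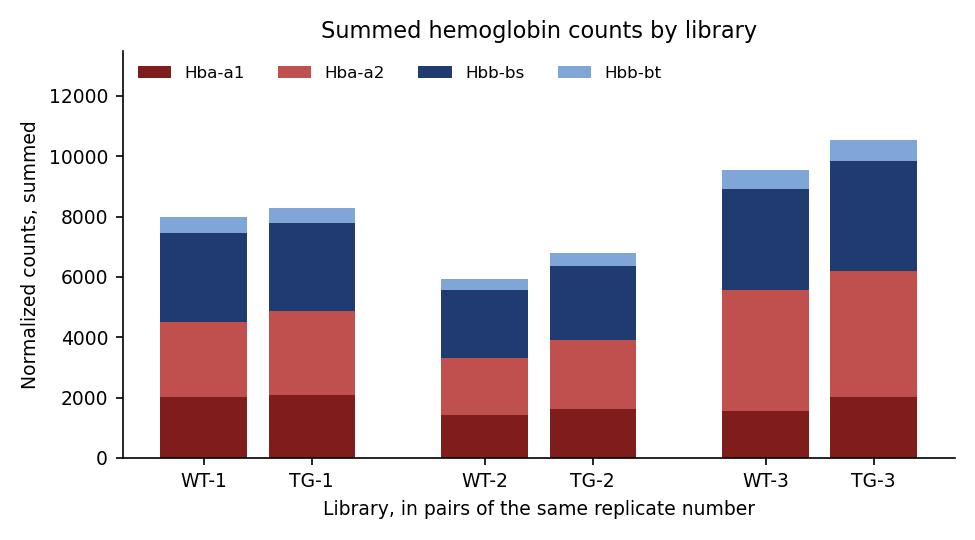
Normalized counts of *Hba-a1*, *Hba-a2*, *Hbb-bs* and *Hbb-bt* stacked for each library (y axis, summed normalized counts), with WT and TG libraries of the same replicate number side by side (x axis). The bars reach 5928 and 6799 for number 2, 7991 and 8275 for number 1, and 9558 and 10543 for number 3.

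Between the genotypes, summed hemoglobin was 8539 ± 1886 normalized counts (SD, n = 3) in TG and 7826 ± 1821 in WT, a ratio of 1.09. This difference is smaller than the spread within either genotype, and the groups overlapped. Within a replicate number, TG over WT was 1.04 for number 1, 1.15 for number 2 and 1.10 for number 3. The ratio was 1.08 over the libraries numbered 1 and 2 alone. The ratio of unpaired means was 0.963 without TG-3 and 0.973 without WT-2, settings that each leave 1 number with a single library.

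The libraries numbered 3 had 1.39 times the summed hemoglobin of the other 4, with 1.40 within TG and 1.37 within WT. The library numbered 1 was 1.22 times that numbered 2 in TG and 1.35 times in WT. Relative to the sum of 16 genes of brain endothelial cells, which line the vessels, hemoglobin was 0.386 in WT-2 and 0.403 in TG-2, against 0.553 in WT-3 and 0.645 in TG-3. On that scale the libraries numbered 3 were 1.39 times the others, but the value rested on 1 gene of the list, *Pecam1*, which was 3.34 times as high in number 3. Without *Pecam1*, left out after the values had been seen, the endothelial sum was 13988 in TG-3 and 14713 in WT-3, against 16530, 16168, 16732 and 14686 in TG-1, TG-2, WT-1 and WT-2. Hemoglobin relative to the other 15 genes was then 1.56 times as high in number 3.

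Per kilobase of the longest coding transcript, the alpha globin gene *Hba-a2* had the highest level, with 5322 ± 1692 normalized counts per kilobase (SD, n = 6). *Hbb-bs* followed with 4666 ± 841, and these 2 levels did not differ beyond their spread, since *Hba-a2* was the higher in 4 of 6 libraries. *Hba-a1* had 2541 ± 406 and *Hbb-bt* 750 ± 177 normalized counts per kilobase. *Alas2*, with 48.8 ± 7.4, was far below the globin genes. From *Hbb-bs* downward each step of this order held in 6 of 6 libraries. In normalized counts not divided by length, *Hba-a2* and *Hbb-bs* were above 87.3% and 87.2% of the 16714 genes tested, and *Alas2* above 26.0%.

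Among the alpha globin genes, *Hba-a2* had 2789, 2309 and 4191 normalized counts in TG-1, TG-2 and TG-3 and 2502, 1896 and 4002 in WT-1, WT-2 and WT-3. Both libraries numbered 3 were above the other 4, and the genotypes overlapped. *Hba-a1* had 2072, 1607 and 2007 normalized counts in TG and 2004, 1412 and 1556 in WT, in the same order of libraries. Here the libraries numbered 2 were again the lowest of their genotype, but those numbered 3 were not the highest. With the split within the pair uncertain, the sum of both genes was 5878 normalized counts in the libraries numbered 3 and 4148 in the others, a ratio of 1.42.

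Among the beta globin genes, *Hbb-bs* had 2924, 2431 and 3643 normalized counts in TG-1, TG-2 and TG-3 and 2953, 2264 and 3367 in WT-1, WT-2 and WT-3. *Hbb-bt* had 489, 453 and 702 normalized counts in TG and 532, 357 and 633 in WT, in that order. Both genes were lowest in the library numbered 2 and highest in the library numbered 3 of each genotype. The sum of both was 1.35 times as high in the libraries numbered 3 as in the others, against 1.42 for the alpha sum.

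*Alas2* did not follow the globin genes. It had 122, 110 and 104 normalized counts in TG-1, TG-2 and TG-3 and 91.0, 85.1 and 84.7 in WT-1, WT-2 and WT-3. Every TG library was above every WT library, and the libraries numbered 3 were the lowest of their genotype. TG over WT was 1.34, 1.29 and 1.22 within numbers 1, 2 and 3.

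**Figure D2:**
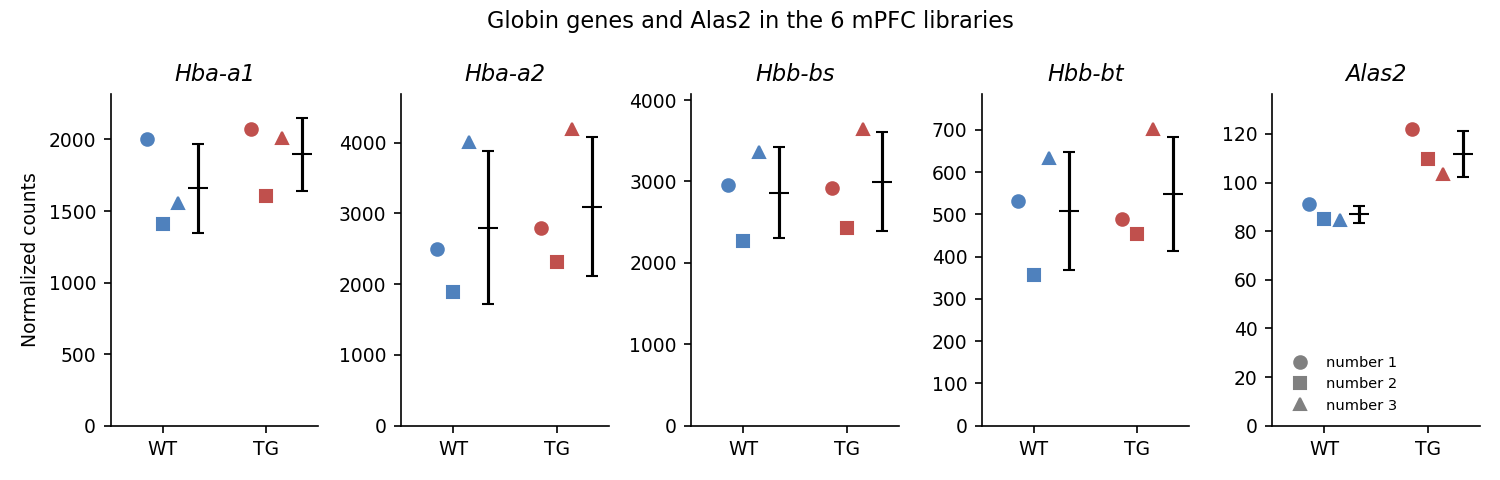
Normalized counts (y axis) of each member in the WT and TG libraries (x axis), with the symbol giving the replicate number and black bars the mean and SD of 3 libraries. The triangles of number 3 are the highest points for *Hba-a2*, *Hbb-bs* and *Hbb-bt*, and only *Alas2* has its TG points, 104 to 122, all above its WT points, 84.7 to 91.0.

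The proportions among the members within a library do not depend on the library's scale. *Hbb-bs* made up between 83.9% and 86.4% of the beta globin counts in every library. *Hba-a1* made up 42.6%, 41.0% and 32.4% of the alpha globin counts in TG-1, TG-2 and TG-3 and 44.5%, 42.7% and 28% in WT-1, WT-2 and WT-3. The libraries numbered 3 therefore had a lower *Hba-a1* share than any other library in both genotypes, in a pair of genes whose reads are mostly shared. The ratio of alpha to beta counts was 1.40 ± 0.04 in TG and 1.31 ± 0.07 in WT (SD, n = 3) and was higher in TG at each number, with overlap between the groups. *Alas2* per 1000 hemoglobin counts was 14.7, 16.2 and 9.82 in TG-1, TG-2 and TG-3 and 11.4, 14.4 and 8.86 in WT-1, WT-2 and WT-3. Within each genotype it was lowest in the library with the highest hemoglobin sum, which is its own denominator.

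**Figure D3:**
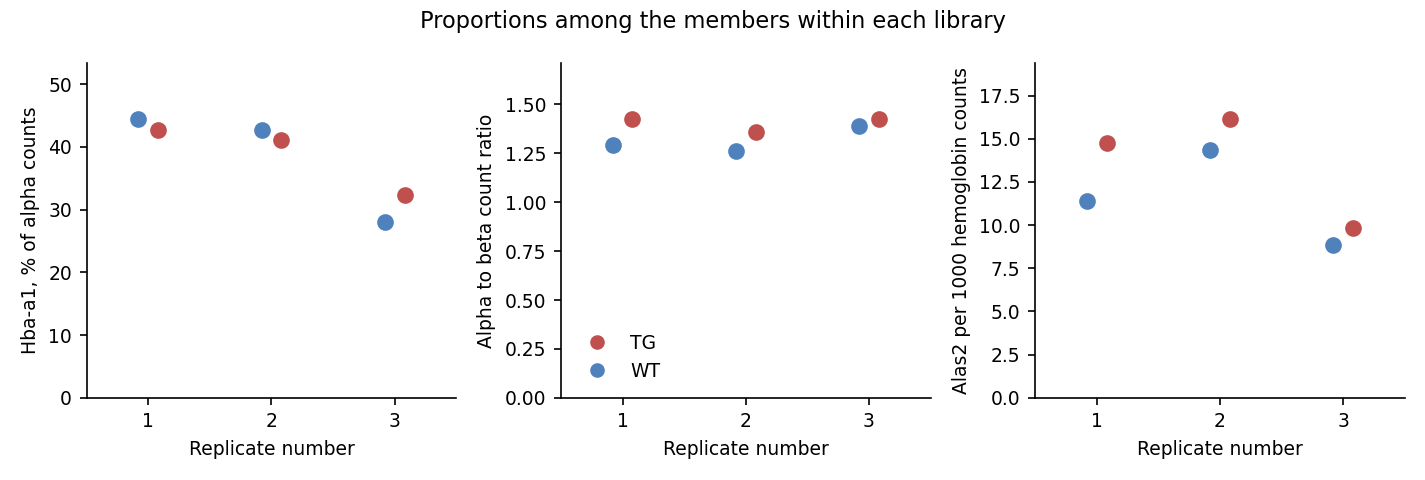
Share of *Hba-a1* in the alpha counts (percent), ratio of alpha to beta counts, and *Alas2* per 1000 hemoglobin counts (y axes) against the replicate number (x axis), 1 point per library. The *Hba-a1* share drops to 32.4% and 28% in TG-3 and WT-3, and the ratio and the *Alas2* proportion are higher in TG than in WT at each number.

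The genotype comparison asked whether TG and WT mPFC differed in any of these genes. Values were compared as log2(normalized count + 1) over the 16714 genes whose mean reached 5 normalized counts, all 5 members among them, with limma's two-sided moderated test and Benjamini-Hochberg adjustment over all genes tested. Of the 5 members 0 had an adjusted p-value under 0.05, as had 0 (0%) of all genes tested, and limma gave each member an adjusted p-value of 0.9999. In this fit, which used genotype alone, *Shank3* had an adjusted p-value of 0.0643 in limma. The gene of the transgene was thus not called either. The number of genes with an unadjusted p-value under 0.05 was 336 (2.01%), and *Alas2* was the 1 member among them. With the replicate number as a block, 1 gene of all tested, *Shank3*, had an adjusted p-value under 0.05 (0.00598%) and 833 (4.98%) an unadjusted one. In the blocked fit of limma the unadjusted value was under 0.05 for 3 of the 5 members, *Hba-a1*, *Hba-a2* and *Alas2*, the last with 0.0360 before adjustment and an adjusted p-value of 0.992.

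*Alas2* had 112 ± 9.37 normalized counts in TG and 86.9 ± 3.51 in WT (SD, n = 3), a fold change of 1.28 with a 95% interval of 1.02 to 1.60. Its log2 fold change of 0.36 (SE 0.14) came with p = 0.0354 before adjustment in limma, and the exact two-sided permutation test gave p = 0.1, the smallest that 3 libraries against 3 allow. The interval takes no account of the number of genes tested. Of all tested genes, 486 (2.91%) had every TG library above every WT library, and 1007 (6.02%) had no overlap in either direction. Leaving out 1 library at a time, the log2 fold change of *Alas2* was between 0.29 and 0.41. Its adjusted p-value in limma's test lay between 0.29 and 1.0 over all alternatives, 0.29 with an empirical null. Without both libraries numbered 3, the log2 fold change was 0.39.

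For the globin genes, the log2 fold changes between TG and WT were 0.20 (SE 0.15) for *Hba-a1*, 0.17 (SE 0.30) for *Hba-a2*, 0.07 (SE 0.18) for *Hbb-bs* and 0.12 (SE 0.24) for *Hbb-bt*. As folds, the 95% intervals ran from 0.902 to 1.46, from 0.698 to 1.81, from 0.782 to 1.40 and from 0.744 to 1.60, and every one of these intervals included 1. Exact two-sided permutation p-values were 0.2 for *Hba-a1*, 0.7 for *Hba-a2* and 0.8 for both beta globin genes. Without TG-3 the log2 fold changes of *Hba-a2*, *Hbb-bs* and *Hbb-bt* were -0.072, -0.083 and -0.067, and without WT-2 they were -0.077, -0.092 and -0.11. *Hba-a1* stayed between 0.09, without WT-2, and 0.35, without WT-1. Without both libraries numbered 3 the log2 fold changes were 0.12 for *Hba-a1*, 0.22 for *Hba-a2*, 0.044 for *Hbb-bs* and 0.11 for *Hbb-bt*. Blocking on the replicate number, the standard errors were smaller, 0.07 for *Hba-a1*, 0.06 for *Hba-a2* and *Hbb-bs* and 0.10 for *Hbb-bt*. In limma the p-values were then 0.0226, 0.0229, 0.262 and 0.249 before adjustment and 0.912 to 0.996 after it.

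The replicate number was tested in a model with genotype and number, by limma's F test with adjustment over the same genes. An adjusted p-value under 0.05 was found for 4 of the 5 members and for 1595 (9.54%) of all tested genes, with 4546 (27.2%) under 0.05 unadjusted. The count over all genes was 449 without TG-3 and 246 without WT-3. The adjusted p-value in this test was 0.000517 for *Hba-a2*, 0.00463 for *Hbb-bs*, 0.0222 for *Hbb-bt*, 0.0412 for *Hba-a1* and 0.766 for *Alas2*. The fitted log2 difference of number 3 from numbers 1 and 2 was 0.80 (SE 0.06) for *Hba-a2*, 0.42 (SE 0.06) for *Hbb-bs* and 0.56 (SE 0.11) for *Hbb-bt*. It was 0.01 (SE 0.08) for *Hba-a1*, whose difference lay between numbers 1 and 2 (log2 difference of number 2 from number 1, -0.44), and -0.11 (SE 0.15) for *Alas2*.

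Both libraries numbered 3 were above the other 4 for 3 of the 5 members, *Hba-a2*, *Hbb-bs* and *Hbb-bt*, and for 3387 (20.3%) of all tested genes. The order of number 2 below 1 below 3 in both genotypes, noted after the values had been seen, held for the same 3 members and for 1153 (6.9%) of all genes. The call for *Hba-a2* held with each library left out in turn. *Hbb-bs* had an adjusted p-value in limma's test of 0.0619 without TG-3 and 0.0592 without WT-3, and *Hbb-bt* of 0.146 and 0.165. With libraries left out in turn, *Hba-a1* was past the threshold without TG-1 (0.0327), and had 0.0679 without TG-2, 0.0765 without TG-3, 0.132 without WT-1, 0.0615 without WT-2 and 0.0979 without WT-3. Without a mean-variance trend in the fit, no member was past the threshold, with 0.128 for *Hba-a2* and up to 0.443 over the 5 members, and 32 genes of all tested were called.

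**Figure D4:**
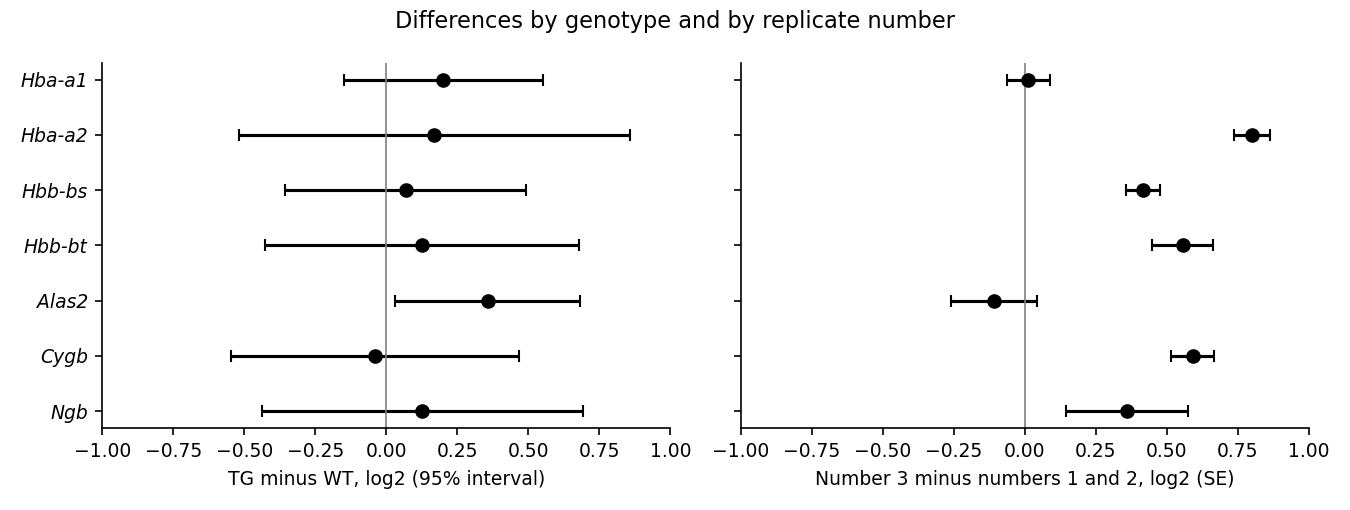
Fitted log2 differences of the 5 members and of *Cygb* and *Ngb*: TG minus WT with 95% intervals (left x axis), and number 3 minus numbers 1 and 2 with standard errors (right x axis). The left panel shows the fit without the replicate block, where only the interval of *Alas2* lies above 0, with no adjustment for the genes tested. With the block, limma's unadjusted p-values were also under 0.05 for *Hba-a1* (0.0226) and *Hba-a2* (0.0229). On the right the bars of *Hba-a2* (0.80), *Cygb* (0.59), *Hbb-bt* (0.56), *Hbb-bs* (0.42) and *Ngb* (0.36) lie to the right of 0.

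The globin genes shared a short transcript, which the choice of genes did not use. Their longest coding transcripts are between 554 and 703 bases long with 50.8% to 57.2% G and C, and that of *Alas2* has 2037 bases and 53.3%. Among all 985 tested genes with a transcript of 500 to 1000 bases, the median log2 difference of number 3 from numbers 1 and 2 was 0.13, with quartiles of -0.12 and 0.42. Both libraries numbered 3 were above the others for 30.6% of these genes, against 18.6% of the 6635 genes with 2000 to 4000 bases, whose median was -0.01. Within the class of 500 to 1000 bases the median hardly moved with the G and C content, from 0.12 to 0.14. The differences of *Hba-a2*, *Hbb-bs* and *Hbb-bt* lay above 95.6%, 88.1% and 92.0% of all tested genes. The part of transcript length in these differences was not tested.

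Genes of red cells other than the members were counted next. Of a list of 21 red cell genes 16 had values and 10 were tested. Of these 0 were called in the genotype fit, and 0 by replicate number, against 0% and 9.54% of all tested genes. The median log2 fold change between TG and WT was -0.08 and the median log2 difference of number 3 was -0.04, against -0.00 for both over all tested genes. The most abundant were *Sptb* (mean 4729.5 normalized counts) and *Ank1* (1894), encoding the spectrin and ankyrin of the red cell membrane skeleton, *Bpgm* (1182), encoding bisphosphoglycerate mutase, and *Tspan33* (549). Neurons also express spectrin and ankyrin genes, so these do not read blood alone.

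The red cell genes with the narrowest expression were near the lower limit of the measurement. *Slc4a1*, encoding the anion exchanger of the red cell membrane, had 21.1, 10.2 and 6.76 normalized counts in TG-1, TG-2 and TG-3 and 8.50, 1.22 and 1.49 in WT-1, WT-2 and WT-3. It was higher in TG at each number and lower in number 3 than in number 1, as *Alas2* was. Its log2 fold change was 1.73 (SE 0.71), with an adjusted p-value of 0.9999 in limma (0.0414 before adjustment). *Klf1*, encoding a transcription factor of red cell precursors, had between 1.83 and 3.84 in every library.

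Genes of heme synthesis beyond its erythroid first enzyme were counted in the same way. All 12 genes of the list were tested, and 0 were called by genotype or by number, against 0% and 9.54% of all tested genes. The median log2 fold change was 0.00 and the median number 3 difference 0.04. *Alas1*, encoding the form of the first enzyme used by most tissues, had 1310 to 1441 normalized counts over the 6 libraries. *Fech*, encoding ferrochelatase, which inserts iron into the ring, had 1351 to 1531, and the mitochondrial iron importer *Slc25a37* 1220 to 1399. *Cpox*, another enzyme of the pathway, had 948 to 1159. In the list of 12 genes for heme breakdown and iron handling, 0 were called in either fit, where the shares were again 0% and 9.54%. The most abundant were *Fth1* and *Ftl1*, encoding the ferritin chains, *Tfrc*, encoding the transferrin receptor, and *Hmox2*, encoding a heme oxygenase, with means of 43081, 5000, 4109 and 1552 normalized counts. *Fth1* had 40343 ± 1651 normalized counts in TG and 45818 ± 4439 in WT (SD, n = 3), a log2 fold change of -0.18 (SE 0.09) with overlap between the groups. It was lower in TG at each number. With the replicate block, its p-value in limma was 0.0254 before adjustment and 0.922 after it.

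Of the 4 tested globin genes other than hemoglobin alpha and beta, 2, *Cygb* and *Ngb*, had both libraries numbered 3 above the rest. Over all tested genes, this held for 20.3%. *Cygb*, encoding cytoglobin of fibroblasts and some neurons, had 1228, 1247 and 1861 normalized counts in TG-1, TG-2 and TG-3 and 1399, 1156 and 1920 in WT-1, WT-2 and WT-3. Both libraries numbered 3 were above the rest, with a log2 difference of 0.59 (SE 0.08) and an adjusted p-value of 0.00625 in limma's F test of the number. *Ngb*, encoding neuroglobin of neurons, had 53.9, 52.5 and 65.2 normalized counts in TG and 59.0, 37.4 and 63.8 in WT. Its number 3 difference was 0.36 (SE 0.21), with an adjusted p-value of 0.345 in that test. *Mb*, encoding myoglobin, and *Hbq1a*, a theta globin gene, had means of 10.5 and 7.0 normalized counts. Of the 9 other globin genes in the list 5 had values and 4 were tested, and the 1 called by number was *Cygb*, where 9.54% of all tested genes were called.

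Other cells of the blood gave different readings of the 6 libraries. Of 14 platelet genes 10 were tested, with 0 called in either fit, against 0% of all tested genes by genotype and 9.54% by number. Their median log2 fold change was 0.10, and 3 had every TG library above every WT library (2.91% over all tested genes). These were *Clec1b*, encoding a platelet lectin receptor, *F2rl2* and *Gp9*, with at most 11.9, 114 and 10.6 normalized counts in any library. By the paper's own test, with DESeq2 and an estimated null distribution, *Clec1b* was called higher in TG. The 4 most abundant platelet genes were *Gp1bb* (mean 486), *Itgb3* (175), *F2rl2* (86.2) and *Itga2b* (68.2). The sum over the measured platelet genes lay between 913.5 and 999 normalized counts in TG and between 817 and 1014 in WT, and was 1.00 times as high in number 3 as in the others. *Gp1bb* made up the largest part of this sum, and 8 of the 12 measured genes had means under 50 normalized counts. Whether the abundant genes of the list read platelets alone was not tested.

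Of 13 neutrophil genes 11 were tested, where the median log2 fold change was -0.14 and the median number 3 difference of 0.42. Their sum ranged from 445 to 552 normalized counts in TG and from 367 to 919 in WT, where WT-3 was the highest, while TG-3 was the lowest TG library. *S100a9*, encoding a calcium-binding protein abundant in neutrophils, had 63.8, 17.3 and 12.0 normalized counts in TG-1, TG-2 and TG-3 and 25.6, 12.0 and 44.9 in WT-1, WT-2 and WT-3. TG-1 and WT-3 were the highest libraries for this gene, which was chosen after its values had been seen. Of the 11 genes, 9 had a positive number 3 difference, and 2, *Cxcr2* and *Mmp9*, had both libraries numbered 3 above the other 4, against 20.3% of all tested genes. *Lcn2* had 111 normalized counts in WT-3 and at most 13.3 elsewhere. *Mpo* (mean 32.7), encoding myeloperoxidase, was the 1 gene of the list called by number, at 0.0238 after adjustment in limma's F test, where the share over all tested genes was 9.54%, and *Csf3r* (209), *Cxcr2* (131) and *Mmp9* (35.3) were the most abundant. Of 14 lymphocyte genes 8 were tested, with 0 called in either fit, against 0% of all tested genes by genotype and 9.54% by number. Their medians were -0.00 by genotype and 0.03 by number. *Ighm* (mean 1045), *Cd3d* (50.6), *Ms4a1* (45.6) and *Cd8a* (28.3) were the most abundant, and 7 of the 9 measured had means under 50 normalized counts.

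Genes of the vessel wall were mostly lower in the libraries numbered 3 by their fitted values. Of 16 endothelial genes, 13 had a negative number 3 difference (median -0.19), with 2 called lower, *Slco1a4* (-0.40, SE 0.06) and *Itm2a* (-0.34, SE 0.07), and 1 called higher, against 623 lower and 972 higher of all 16714 tested. The gene called higher was *Pecam1*, encoding the adhesion molecule CD31, which had 811, 722 and 2358 normalized counts in TG-1, TG-2 and TG-3 and 755, 657 and 2560 in WT-1, WT-2 and WT-3. The most abundant of the list, *Slc2a1* (mean 3113), encoding the glucose transporter of the blood-brain barrier, and *Flt1* (2821), encoding a VEGF receptor, were not called. Of 12 mural genes, those of pericytes and smooth muscle, 10 were lower (median -0.22) and 0 were called, with *Rgs5* (mean 3292), *Vtn* (1566), *Pdgfrb* (794) and *Notch3* (651) the most abundant. By genotype the medians of both lists were close to 0, at 0.03 and 0.01.

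Tissues next to the cortex were read from lists of their own. Leptomeningeal genes had a median log2 fold change of 0.34, with 9 of 9 higher in TG on average, and a median number 3 difference of -0.26. Border macrophage genes had medians of 0.31 and -0.40, with 7 of 7 higher in TG on average. In both lists 0 genes were called, against 0% of all tested genes by genotype and 9.54% by number. Every TG library was above every WT library for 2 of 9 leptomeningeal and 1 of 7 macrophage genes, against 2.91% of all tested genes. *Igfbp2* (mean 805), *Col1a2* (735), *Islr* (419) and *Col1a1* (381) were the most abundant leptomeningeal genes, and *Mrc1* (186), *F13a1* (78.8), *Cd163* (71.0) and *Ms4a7* (34.9) the most abundant of the macrophage list. *Alas2*, higher in TG in every library, and the leptomeningeal sum, 3399 to 4078 normalized counts in TG and 2830 to 3398 in WT, both had genotypes that did not overlap, the latter by a narrow margin. The part of leptomeningeal tissue in the *Alas2* difference was not tested. Choroid plexus genes had medians of 0.36 and 1.08. *Ttr*, encoding transthyretin of the choroid plexus, was called by number (2.29, SE 0.47), the 1 called of 6 tested. It had 127, 22.9 and 445 normalized counts in TG-1, TG-2 and TG-3 and 14.3, 12.6 and 41.7 in WT-1, WT-2 and WT-3, higher in TG at each number with overlap between the groups. Its log2 fold change between TG and WT was 2.42 (SE 0.97), with an adjusted p-value of 0.9999 in limma and 0.350 with the block (0.000518 before adjustment). The paper's own test called *Ttr* higher in TG. The part of choroid plexus tissue in the members' values was not tested. The choroid plexus genes *Kl*, *Sostdc1* and *Clic6* had means of at most 63.8 normalized counts. Cortical neuron genes, with *Camk2a*, *Nrgn*, *Slc17a7* and *Gad1* the most abundant, had medians of 0.05 and 0.21, and *Nrgn* (0.81, SE 0.07) and *Neurod6* (0.32, SE 0.07) were called higher in number 3, as were 972 of all 16714 genes tested.

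Without both libraries numbered 3, the median log2 fold changes between TG and WT were 0.12 for the hemoglobin members, -0.034 for other globins, -0.0019 for heme synthesis, -0.047 for heme and iron handling and -0.080 for red cell genes. They were 0.29 for platelet, 0.80 for neutrophil and 0.24 for lymphocyte genes, so that the neutrophil median turned from -0.14. They were 0.033 for endothelial, 0.073 for mural, 0.33 for leptomeningeal, 0.43 for border macrophage, 0.29 for choroid plexus and 0.051 for cortical neuron genes. With 1 library left out, the neutrophil median ran from -0.41 without WT-2 to 0.48 without WT-3, and the choroid plexus median fell to -0.056 without TG-3.

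**Figure D5:**
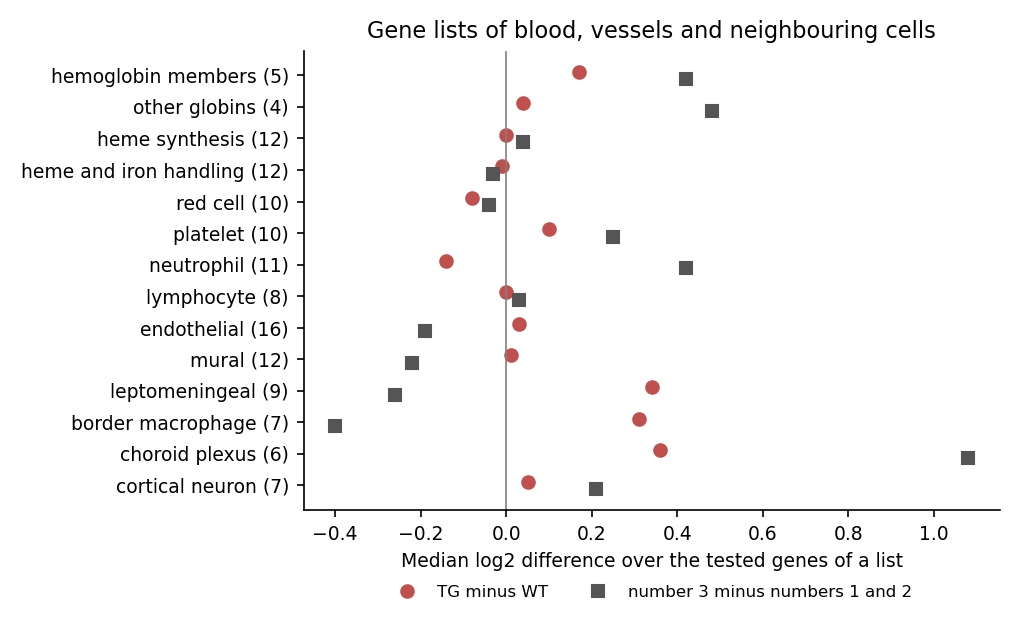
Median log2 difference over the tested genes of each list (x axis), with the number of genes in parentheses, for TG minus WT (circles) and for number 3 minus numbers 1 and 2 (squares). The choroid plexus list lies highest for number 3, at 1.08, then other globins at 0.48 and the hemoglobin members and neutrophil genes at 0.42. Red cell and lymphocyte genes lie at -0.04 and 0.03, and the endothelial, mural, leptomeningeal and border macrophage lists between -0.19 and -0.40.

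The genes whose pattern over the 6 libraries was most like summed hemoglobin were found by the root mean square difference between centered log2 profiles, among 13450 genes whose mean reached 50 normalized counts. The 10 closest had differences of 0.053 to 0.078, against a median of 0.309, and *Hbb-bs* itself had 0.048. This set was not stable. Of the 10 genes, 0 stayed among the first 10 by Pearson's r, 1 with numbers 1 and 2 only, and 2 to 7 with 1 library left out. *Plvap* (ENSMUSG00000034845, chromosome 8 from 71497765 to 71511752), encoding a protein of the diaphragms of fenestrated capillaries, was the closest. It had 247, 203 and 329 normalized counts in TG-1, TG-2 and TG-3 and 220, 176 and 287 in WT-1, WT-2 and WT-3. The next were *Uqcrq* and *Ndufa11*, subunits of respiratory complexes III and I, *Alkbh7*, *Tomm5*, *Mthfsl*, *Mrpl14*, *Cib2*, *Sox9* and *Tmem138*, at 0.065 to 0.078. *Tomm5* encodes a subunit of the mitochondrial import complex, *Mrpl14* a protein of the mitochondrial ribosome and *Sox9* a transcription factor of astrocytes. Their number 3 differences lay between 0.38 and 0.62 on the log2 scale. The transcripts of the 10 genes had a median length of 1175.5 bases, against 3024 for all tested genes. Over these libraries 8 genes were closer to summed hemoglobin than *Hbb-bt* (0.074), 364 were closer than *Hba-a2* (0.157), 2341 than *Hba-a1* (0.233) and 7331 than *Alas2* (0.319).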

How the data were processed

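RNA of 6 pools of mPFC was sequenced as stranded mRNA libraries. The authors quantified reads against GRCm38 with Salmon 0.9.1 with correction for GC content, imported the estimates by gene and normalized them with DESeq2 1.19.11 in R 3.6.0, per the paper's methods and the submitters' processing notes. The deposited values are these normalized read counts, a signal that is no longer a count of whole reads, so no count model was used. Salmon divides reads shared by near-identical transcripts by estimation, which affects the split within the globin pairs.

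Ensembl identifiers were matched to GENCODE M21, which held 18231 of 18254. Samples were grouped by the labels. Values were analysed as log2(normalized count + 1), for genes with a mean of at least 5, with limma 3.58.1 in R 4.3.3 (mean-variance trend, two-sided, Benjamini-Hochberg, threshold 0.05). The scripts were tested on simulated data with 200 changed genes. At a log2 change of 0.5, 0 of these were called by genotype and 0 by number, and at a change of 1, 112 and 53. The lack of a call for a member therefore does not exclude a change of 0.5 or less. Single values were also compared by exact permutation. Python 3.11.15 was used for the rest. Genes named were the members, *Shank3*, up to 4 of the most abundant genes of each list and up to 4 called ones, and the 10 genes most like summed hemoglobin. *Slc4a1*, *Klf1*, *Clec1b*, *Gp9*, *S100a9* and *Lcn2* were named after their values had been seen. The members and lists were chosen with earlier results of these data known.

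The labels do not say what libraries of one number share, and the methods speak of pairs. Deviations from the group means correlated by 0.302, 0.332 and 0.616 for same-numbered libraries and by at most 0.266 for others. Between numbers 1 and 2 they correlated by 0.227 and 0.266, close to the values of 0.302 and 0.332. The main genotype fit used genotype alone, and a pairing by number entered as the replicate block, an alternative. Each library is a pool, and p-values measure the spread between pools. Alternatives were pseudocounts of 0.1 and 5, filters, rescaling, other variance options, an empirical null, the replicate block and libraries left out. One gene of the red cell list is not reported here.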

Additional observations from a re-analysis of the deposited data

How the results depend on the processing

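Over 18 alternatives for each of the 5 members, 84 of 90 genotype values kept their direction and 6 turned, and 0 passed the threshold. Those that turned were *Hba-a2*, *Hbb-bs* and *Hbb-bt*, at -0.072, -0.083 and -0.067 without TG-3 and -0.077, -0.092 and -0.11 without WT-2, and at most 0.46, 0.21 and 0.30 with any library left out. For the replicate number, *Hba-a1* turned to -0.044 without TG-1 and -0.11 without TG-3, and reached 0.14 without WT-3. The paired fit with a replicate block called 1 gene by genotype against 0, as did the robust option, the block with the robust option, the libraries numbered 1 and 2 only, chosen after seeing the data, and the fit without WT-3. That 1 gene was *Shank3*, and the empirical null called 26. With libraries left out the count was 0 to 1. The block changed no other call. Calls by replicate number fell from 1595 to 32 without a mean-variance trend and ranged from 246 to 2252 with libraries left out. The cause was not tested.

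With libraries left out, median log2 fold changes ran from -0.077 to 0.31 for the hemoglobin members, -0.16 to 0.21 for other globins, -0.028 to 0.27 for platelet, -0.41 to 0.48 for neutrophil, 0.22 to 0.41 for leptomeningeal, -0.056 to 0.70 for choroid plexus and -0.018 to 0.12 for cortical neuron genes. Over the libraries numbered 1 and 2 only, they were 0.29 for platelet, 0.80 for neutrophil, 0.24 for lymphocyte and 0.29 for choroid plexus genes, and the replicate block gave 0.39 for the last. Of the 10 genes most like hemoglobin, 0 were among the first 10 by Pearson's r, 1 with numbers 1 and 2 only, and 2 to 7 with libraries left out. Per endothelial list without *Pecam1*, chosen after seeing the data, summed hemoglobin was 1.56 times as high in number 3. With 3 pools a genotype, the exact test cannot go below 0.1.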
